A study of Mus musculus with 24 samples.

Results

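The genes described here encode 10 proteins of the vascular basement membrane or its surroundings: Col4a1, Col4a2, Lama4, Lama5, Lamb2, Lamc1, Nid1, Hspg2, Fn1 and Sparc. They were taken by symbol from a table of 47643 gene symbols, and all 10 were found. The 10 were chosen with earlier results of these data known, so their counts beside those of all genes are a description and no independent test. The basement membrane is a thin sheet of protein that endothelial cells, pericytes and astrocyte endfeet lay down around brain vessels. Networks of type IV collagen and of laminin form separately and are joined by nidogen and the proteoglycan perlecan, and integrins on the cells hold on to the laminin. In the brain this sheet is part of the blood-brain barrier.

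Bulk RNA sequencing covered 3 brain regions, neocortex, cerebellum and hippocampus, of 4-month-old male C57BL/6J mice. LLC mice had received an injection of LLC cells, with tissue taken about 3 weeks later, and control mice a mock injection. LLC is a common short form of Lewis lung carcinoma, though no label explains it, and the title of the series names melanoma instead. Each of the 3 regions had 4 LLC libraries (replicates 1 to 4) and 4 control libraries (replicates 14 to 17). The series concerns wasting caused by a tumour. The labels call the libraries biological replicates without naming animals, so the p-values measure the spread between these libraries only.

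Values are TPM, in which each transcript's reads are scaled by its length and then to a fixed library total, so read numbers are lost and the depth is unknown. In each library 14368 to 14847 genes had at least 1 TPM. Cerebellar LLC replicate 1 had a summed level of 4397 TPM over 6 oligodendrocyte markers, against 2129 to 2895 TPM in the other cerebellar LLC libraries and 2658 to 3312 TPM in cerebellar controls. Hippocampal LLC replicate 2 had 7455 TPM over 6 choroid plexus markers, against 54.1 to 122 TPM in the other hippocampal LLC libraries. In hippocampal controls this sum was 2576, 103, 50.9 and 4094 TPM. LLC libraries also held more erythrocyte transcripts, with sums over 5 markers of 2621 to 15574 TPM across regions, against 729 to 1623 TPM in controls. Neutrophil markers, 6 genes, summed to 23.7 to 197 TPM in LLC libraries and to 1.12 to 15.4 TPM in controls.

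The collagen IV of vessels is a trimer built from a pair of alpha-1 chains (Col4a1) and an alpha-2 chain (Col4a2), and mutations of either gene can cause bleeding in the brain. The genes lie head to head on chromosome 8 of mm10 (GENCODE M21), Col4a1 on the minus strand at chr8:11198423-11312826 and Col4a2 on the plus strand at chr8:11312805-11449287. Their annotated starts are 21 bases apart, so that transcription of both begins in the same short stretch. The windows below run from 250 bases before to 50 bases after each start and are shown because the genes of both chains start in 1 shared stretch. Capitals mark the 78 bases, chr8:11312777-11312854, that both windows hold, each read 5′ to 3′ along its own gene (RefSeq, GRCm38.p6; chr8:11312777-11313076, minus strand, and chr8:11312555-11312854, plus strand).
Col4a1 promoter: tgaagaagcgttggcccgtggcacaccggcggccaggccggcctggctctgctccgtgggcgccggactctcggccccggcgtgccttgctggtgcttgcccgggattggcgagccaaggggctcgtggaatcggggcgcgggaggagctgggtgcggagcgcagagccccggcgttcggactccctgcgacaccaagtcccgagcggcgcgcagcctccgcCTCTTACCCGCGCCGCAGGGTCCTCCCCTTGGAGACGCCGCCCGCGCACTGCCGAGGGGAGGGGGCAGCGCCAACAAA
Col4a2 promoter: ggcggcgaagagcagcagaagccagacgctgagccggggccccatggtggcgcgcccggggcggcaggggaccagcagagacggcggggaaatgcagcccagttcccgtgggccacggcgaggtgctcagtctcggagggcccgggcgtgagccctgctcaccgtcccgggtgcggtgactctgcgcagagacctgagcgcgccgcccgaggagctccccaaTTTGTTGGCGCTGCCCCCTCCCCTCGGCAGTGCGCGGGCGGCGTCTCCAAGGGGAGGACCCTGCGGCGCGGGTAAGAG
GC made up 74% of the Col4a1 window and 73.7% of the Col4a2 window, against a median of 52.7% over 27025 RefSeq promoter windows of the same length. The GC box GGGCGG, searched on both strands, occurred 1 time in the Col4a1 window and 3 times in the Col4a2 window, overlaps counted, and in 35.9% of all windows. The sequence CCAAT, also on both strands, occurred 1 time in each window and in 37.9% of all windows. TATAAA occurred in neither window and in 14.2% of all.

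In neocortex, Col4a1 stood at 33.4, 35.3, 33.0 and 25.0 TPM in LLC mice, against 18.5, 16.3, 16.04 and 16.9 TPM in control mice. All LLC libraries were above all controls, with LLC replicate 4 the lowest of its group. The rise was 0.86 ± 0.10 in log2 units (SE) on the scale of log2(TPM + 1), used for all fold changes here (limma adjusted p = 0.00229). Col4a2 read 32.4, 34.2, 31.8 and 30.3 TPM in LLC neocortex and 21.7, 19.0, 19.8 and 21.4 TPM in control neocortex. It rose by 0.63 ± 0.05 (limma adjusted p = 6.09e-04), and its LLC values lay closer together than those of Col4a1. Of the 10 genes, 7 rose in neocortex and 0 fell, where 5.59% of the 14485 genes tested rose and 2.95% fell.

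In cerebellum, Col4a1 was at 24.6, 17.8, 14.1 and 14.3 TPM in LLC mice and at 11.6, 10.5, 8.55 and 8.58 TPM in controls. Col4a2 was at 24.5, 16.05, 13.99 and 13.5 TPM in LLC mice and at 10.8, 9.02, 8.74 and 7.73 TPM in controls. Neither gene's groups overlapped, and LLC replicate 1 was the highest for both. The rise was 0.77 ± 0.17 for Col4a1 and 0.81 ± 0.17 for Col4a2 (limma adjusted p = 0.0492 and 0.0468). Without LLC replicate 1 the rises were 0.61 and 0.63 and both still passed (limma adjusted p = 0.0210 and 0.0144). Of the 10 genes, 4 rose in cerebellum and 0 fell, where 1.23% of 14624 genes rose and 1.27% fell. Counted in either direction, 0 members were called without LLC replicate 2, without LLC replicate 3 or without any 1 of the controls. Calls over all genes fell from 366 to 17 and 48 without those LLC libraries. They fell to 27, 9, 6 and 45 without control replicates 14 to 17. Without LLC replicates 1 and 4 the counts were 5 and 6 members, where 1288 and 1570 genes were called. The 6 members include Nid1, which fell (-0.43 to -0.32 over the omissions, lowest limma adjusted p = 0.0274).

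In hippocampus Col4a1 was called and Col4a2 was not, which is no test of a difference between the chains (the test of their ratio follows further on). Col4a1 stood at 50.2, 58.5, 52.4 and 47.3 TPM in LLC mice, against 40.4, 39.7, 35.1 and 35.4 TPM in controls, with no overlap. It rose by 0.46 ± 0.07 (limma adjusted p = 0.0186). Col4a2 read 46.0, 60.8, 45.7 and 62.6 TPM in LLC mice and 54.7, 51.2, 46.6 and 49.4 TPM in controls. Its LLC libraries lay on both sides of the controls, and the difference of 0.08 ± 0.11 did not pass (95% interval -0.16 to 0.32, limma adjusted p = 0.725). Of the 10 genes, 3 rose in hippocampus and 0 fell, where 2.58% of 14650 genes rose and 1.03% fell. That count was 1 without control replicate 15, 16 or 17, where calls over all genes fell from 529 to 57, 90 and 103.

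**Figure D1:**
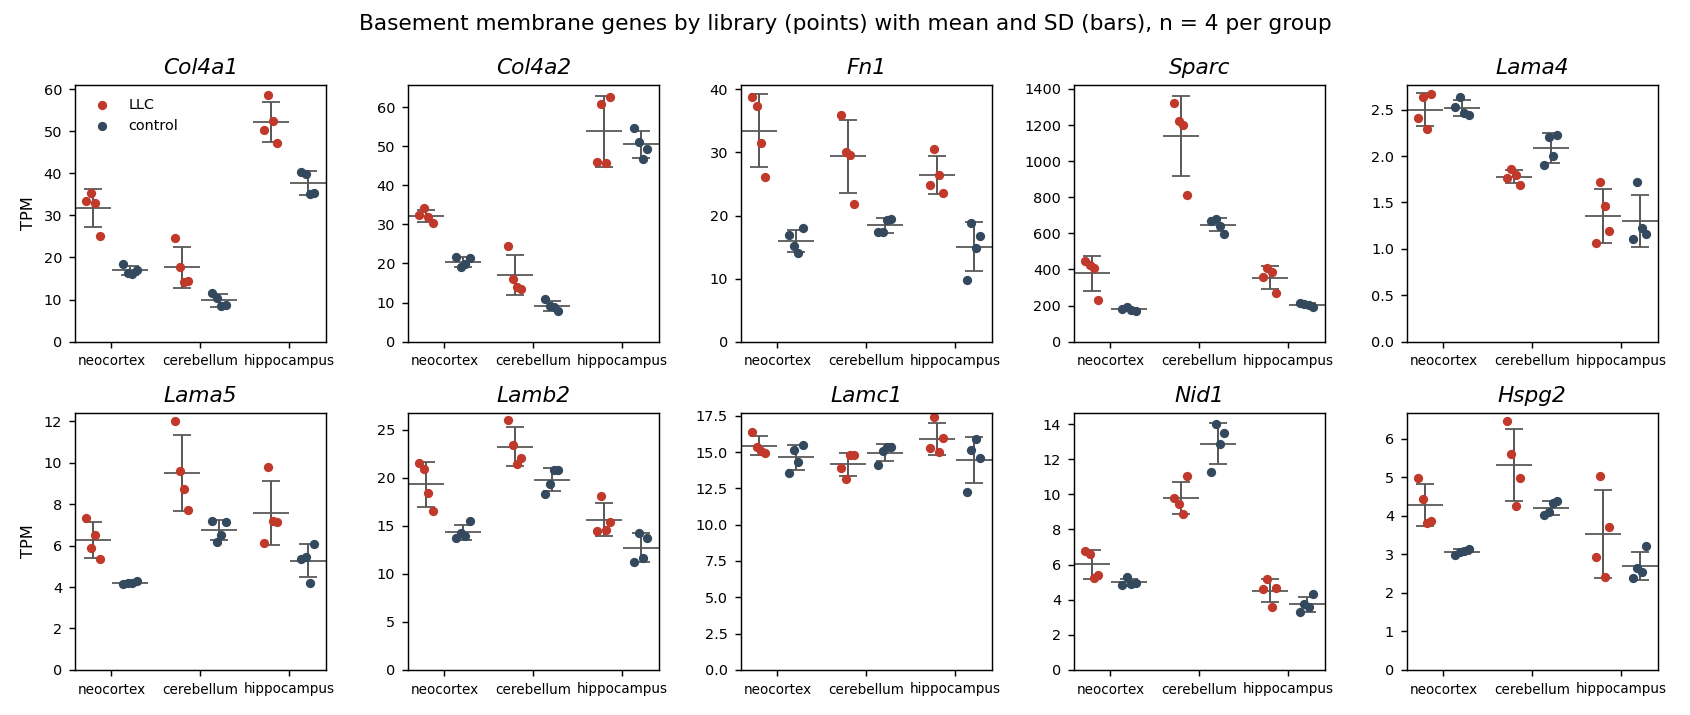
TPM (y axis, from 0) of the 10 genes in each library, by region (x axis), with LLC libraries in red left of control libraries in dark blue, and bars for the mean and SD of 4 libraries. Sparc, Fn1 and Col4a1 have every LLC point above every control point in all 3 regions, while the groups of Lamc1 overlap in all 3 regions and those of Col4a2 overlap in hippocampus.

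Laminins are trimers of an alpha, a beta and a gamma chain. Lama4 and Lama5 encode the alpha chains of endothelial laminins, Lamb2 a beta chain and Lamc1 the gamma chain that most laminins share. In neocortex Lama5 was at 7.35, 5.88, 6.52 and 5.37 TPM in LLC mice and at 4.15, 4.21, 4.19 and 4.27 TPM in controls. The groups did not overlap, and Lama5 rose by 0.48 ± 0.08 (limma adjusted p = 0.0138). Lama5 was 0.43 ± 0.12 higher in cerebellum and 0.44 ± 0.14 higher in hippocampus on the same scale, and passed in neither (limma adjusted p = 0.0845 and 0.0999). All LLC libraries were above all controls in those regions too.

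Lamb2 was at 21.6, 20.9, 18.4 and 16.5 TPM in LLC neocortex and at 13.7, 14.2, 13.9 and 15.5 TPM in control neocortex, and rose by 0.40 ± 0.08 (limma adjusted p = 0.0203). Every LLC library was above every control, but the call was lost without LLC replicate 1 or 2 or control replicate 14, 15 or 16 (limma adjusted p up to 0.0676). In cerebellum Lamb2 averaged 23.2 ± 2.02 TPM in LLC mice and 19.8 ± 1.21 TPM in controls, and in hippocampus 15.6 ± 1.73 TPM in LLC mice and 12.7 ± 1.52 TPM in controls (SD, n = 4 each). Neither difference passed (limma adjusted p = 0.139 and 0.130).

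Lama4 and Lamc1 passed in no region. Lama4 averaged 2.50 ± 0.18 TPM in LLC neocortex and 2.52 ± 0.09 TPM in control neocortex, a difference of -0.01 with a 95% interval of -0.16 to 0.15. In cerebellum the 4 LLC values of Lama4, 1.69 to 1.86 TPM, lay below the 4 control values, 1.90 to 2.23 TPM, but the difference of -0.15 did not pass (limma adjusted p = 0.330). Lamc1 averaged 15.4 ± 0.65 TPM in LLC neocortex and 14.6 ± 0.86 TPM in control neocortex, and its differences over the 3 regions ran from -0.08 to 0.13 (lowest limma adjusted p = 0.389).

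Nidogen-1, encoded by Nid1, links the laminin and collagen networks. It was the 1 member whose LLC effect differed between regions past the threshold. Its promoter window is shown for that reason, with capitals for ATTGG, which reads CCAAT on the other strand, and for the GC box (RefSeq, GRCm38.p6, chr13:13437352-13437651, plus strand).
Nid1 promoter: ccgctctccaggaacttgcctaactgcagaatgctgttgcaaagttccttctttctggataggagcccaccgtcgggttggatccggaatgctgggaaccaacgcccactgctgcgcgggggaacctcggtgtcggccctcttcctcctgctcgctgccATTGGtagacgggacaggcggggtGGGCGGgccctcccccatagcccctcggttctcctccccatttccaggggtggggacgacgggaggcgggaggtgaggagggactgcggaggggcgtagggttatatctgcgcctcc
In hippocampus Nid1 stood at 4.63, 5.17, 3.59 and 4.66 TPM in LLC mice and at 3.28, 3.74, 3.59 and 4.33 TPM in controls. In cerebellum it stood at 9.80, 9.42, 8.86 and 11.03 TPM in LLC mice, all below the controls at 11.3, 13.997, 12.8 and 13.5 TPM. In neocortex it stood at 6.78, 6.62, 5.21 and 5.42 TPM in LLC mice and at 4.85, 5.28, 4.91 and 4.93 TPM in controls. Within a region no difference passed: it was 0.22 ± 0.11 in hippocampus, -0.37 ± 0.09 in cerebellum and 0.22 ± 0.08 in neocortex (limma adjusted p = 0.282, 0.0664 and 0.116). The effect in cerebellum minus that in neocortex was -0.58 ± 0.14 (limma adjusted p = 0.0472), in a contrast where 0.646% of 13783 genes were called and 0.566% in that direction. The call was lost without any 1 of 11 of the 16 libraries, among them LLC neocortex replicates 1 and 2, LLC cerebellum replicates 2 and 3 and every neocortical control (limma adjusted p up to 0.142). The effect in hippocampus minus that in cerebellum was 0.58 ± 0.14 and did not pass (limma adjusted p = 0.0950).

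Perlecan, the heparan sulfate proteoglycan encoded by Hspg2, was at 4.98, 4.43, 3.81 and 3.88 TPM in LLC neocortex and at 2.98, 3.06, 3.09 and 3.14 TPM in control neocortex. It rose by 0.37 ± 0.08 without overlap (limma adjusted p = 0.0265), a call that was lost without LLC replicate 1 or 2 or any 1 of the controls (limma adjusted p up to 0.0814). In cerebellum Hspg2 averaged 5.33 ± 0.94 TPM in LLC mice and 4.21 ± 0.18 TPM in controls, and in hippocampus 3.52 ± 1.14 TPM in LLC mice and 2.70 ± 0.36 TPM in controls (SD, n = 4 each). Neither passed, and both regions had overlapping groups. The hippocampal difference depended in part on LLC replicate 2: it was 0.26 with that library and 0.11 without it. High choroid plexus markers were seen in that library and also in control replicates 14 and 17. Whether they bear on Hspg2 was not tested.

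Fibronectin, encoded by Fn1, is an adhesive glycoprotein that endothelial cells make and that also circulates in plasma from the liver. In neocortex Fn1 was at 38.8, 37.3, 31.5 and 26.2 TPM in LLC mice and at 16.9, 15.1, 14.03 and 18.0 TPM in controls. It rose by 1.01 ± 0.12 (limma adjusted p = 0.00293). In cerebellum Fn1 was at 35.9, 30.0, 29.7 and 21.9 TPM in LLC mice and at 17.4, 17.4, 19.4 and 19.4 TPM in controls, a rise of 0.63 ± 0.13 (limma adjusted p = 0.0434). In hippocampus it was at 24.9, 30.6, 26.5 and 23.6 TPM in LLC mice and at 9.71, 18.8, 14.8 and 16.8 TPM in controls, a rise of 0.80 ± 0.17 (limma adjusted p = 0.0355). The groups did not overlap in any of the 3 regions, but the hippocampal call was lost without any 1 of 7 of the 8 libraries, all but LLC replicate 4. Without LLC hippocampus replicate 2 the difference was 0.73 (limma adjusted p = 0.0902). The cerebellar call of Fn1 was lost in 6 of 8 omissions of a library (limma adjusted p up to 0.153).

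SPARC is a secreted protein that binds collagen and calcium and influences how collagen IV is laid down. It had the highest level of the 10 genes in every region. In neocortex Sparc was at 449, 422, 409 and 231 TPM in LLC mice and at 179, 191, 174 and 172 TPM in controls, a rise of 1.03 ± 0.17 (limma adjusted p = 0.0129, and 0.0512 without LLC replicate 2). In cerebellum it was at 1321, 1224, 1199.6 and 815 TPM in LLC mice and at 669, 679, 640.3 and 599 TPM in controls, a rise of 0.79 ± 0.14 (limma adjusted p = 0.0266). In hippocampus it was at 358, 406, 387 and 267 TPM in LLC mice and at 213, 209.8, 201 and 194 TPM in controls, a rise of 0.77 ± 0.11 (limma adjusted p = 0.0151). LLC replicate 4 was the lowest of its group in all 3 regions and still above every control. The cerebellar call of Sparc was lost in 6 of 8 omissions of a library (limma adjusted p up to 0.104). The Sparc promoter window, shown because this gene had the highest level and was called in every region, surrounds a RefSeq start that lies inside the GENCODE M21 gene, chr11:55394500-55423183 on the minus strand of mm10. Capitals mark a run of CT repeats, of which a run of 12 letters, on either strand, was held by 0.599% of all windows (RefSeq, GRCm38.p6, chr11:55420031-55420330, minus strand). GC made up 55.3% of it, far less than in either collagen IV window, and it held no GGGCGG on either strand.
Sparc promoter: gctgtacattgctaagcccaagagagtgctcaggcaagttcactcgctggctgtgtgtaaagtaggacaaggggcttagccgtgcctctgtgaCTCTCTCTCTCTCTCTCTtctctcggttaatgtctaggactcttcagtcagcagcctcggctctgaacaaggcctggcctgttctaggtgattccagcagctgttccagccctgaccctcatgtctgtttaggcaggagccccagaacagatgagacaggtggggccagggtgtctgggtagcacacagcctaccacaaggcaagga

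**Figure D2:**
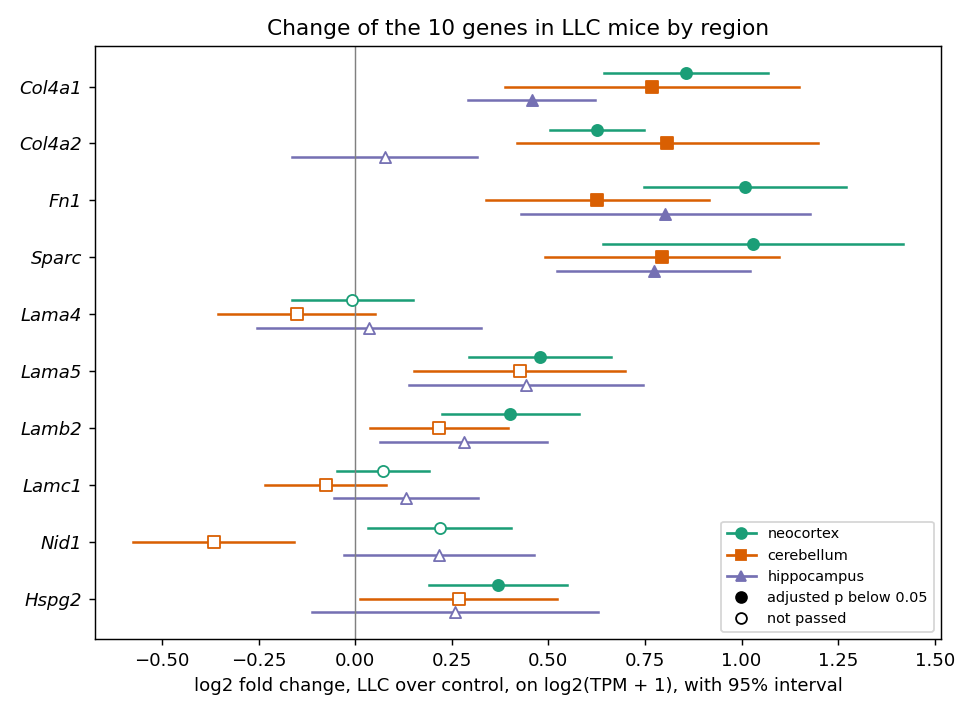
Log2 fold change of LLC over control on log2(TPM + 1) (x axis) for each of the 10 genes (y axis), with 95% intervals, for neocortex (circles), cerebellum (squares) and hippocampus (triangles); filled symbols passed the limma test. Sparc, Fn1 and Col4a1 are filled in all 3 regions, and Nid1 lies left of 0 in cerebellum and right of 0 in neocortex and hippocampus.

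Sparc, Fn1 and Col4a1 were thus called in each region, Col4a2 in neocortex and cerebellum, and Lama5, Lamb2 and Hspg2 in neocortex alone. Each of the cerebellar calls was lost in 6 of 8 omissions of a library, in which calls over all genes fell as well. Being called in 1 region and not in another is no test of a difference. In the tests of the difference itself, Nid1 was called between cerebellum and neocortex. Between hippocampus and cerebellum 0 of the 10 genes were called by limma, where 0.0936% of 13884 genes were, and 3 had an unadjusted p under 0.05: Nid1, Col4a2 and Lamc1. The LLC effect on Col4a2 was 0.73 ± 0.19 lower in hippocampus than in cerebellum on the log2 scale, coded as -0.73 (limma adjusted p = 0.140). Between hippocampus and neocortex 0 of 10 were called, as were 0 of all 14152 genes, and 2 had an unadjusted p under 0.05. These were Col4a2, with an effect of -0.55 ± 0.19, and Col4a1, with -0.40 ± 0.19 (unadjusted p = 0.00846 and 0.0447 in limma, adjusted p = 1.00 for both).

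The median change of the 10 genes was 0.44 in neocortex, 0.35 in cerebellum and 0.27 in hippocampus, beside medians over all genes tested of 0.01, -0.04 and 0.01. Because of how the 10 were chosen, this comparison and the counts below describe the list and do not test it. All 10 passed the filter on low values in each region. In the average of the 3 regions per replicate number, 6 of the 10 rose and 0 fell, where 7.66% of 14873 genes rose and 5.45% fell. These were Sparc (0.87), Fn1 (0.81), Col4a1 (0.69), Col4a2 (0.50), Lama5 (0.45) and Lamb2 (0.30), with limma adjusted p between 0.00347 and 0.0194. Hspg2 was 0.30 higher and did not pass (limma adjusted p = 0.0564). The differences of Nid1, Lamc1 and Lama4 were 0.02, 0.04 and -0.04. Groups did not overlap for 7 genes in neocortex, all higher in LLC mice, where 10.9% of all genes tested were. In cerebellum 6 were higher and 2, Lama4 and Nid1, lower without overlap, where 6.42% and 10.3% of genes were. In hippocampus 5 were higher without overlap, where 8.95% of genes were.

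Because TPM is set against the total of a library, ratios of partner chains within a library do not depend on that total. They were compared with a two-sided exact permutation test of their log2 values, whose smallest possible p with 4 against 4 libraries is 0.0286. The p-values were adjusted over all 15 tests (5 ratios in 3 regions). None passed after adjustment, the lowest adjusted p being 0.0536. With that smallest p, a single ratio could not pass on its own over 15 tests, however far apart its groups lay. The adjusted result therefore cannot decide about any 1 ratio. The ratio of Lama5 to Lama4 in neocortex was 3.05, 2.23, 2.85 and 2.01 in LLC mice and 1.64, 1.60, 1.70 and 1.75 in controls (exact p = 0.0286). In cerebellum it was 6.83, 5.17, 4.87 and 4.57 in LLC mice and 3.79, 2.80, 3.25 and 3.20 in controls (exact p = 0.0286). In hippocampus it averaged 5.60 ± 0.48 in LLC mice and 4.17 ± 1.02 in controls (SD, n = 4 each), and the groups overlapped (exact p = 0.0571).

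The ratio of Lamc1 to Lamb2 was lower in LLC mice without overlap in all 3 regions (exact p = 0.0286 each). It averaged 0.804 ± 0.076 in LLC and 1.02 ± 0.034 in control neocortex, 0.614 ± 0.077 in LLC and 0.756 ± 0.020 in control cerebellum, and 1.02 ± 0.042 in LLC and 1.15 ± 0.148 in control hippocampus (SD, n = 4 each). The ratio of Lamb1, another laminin beta chain, to Lamb2 averaged 0.289 ± 0.028 in LLC and 0.378 ± 0.034 in control neocortex, without overlap (exact p = 0.0286, SD, n = 4 each). It overlapped in the other regions, with 0.574 ± 0.152 in LLC and 0.651 ± 0.042 in control cerebellum (exact p = 0.457) and 0.930 ± 0.064 in LLC and 1.09 ± 0.137 in control hippocampus (exact p = 0.0571). The ratio of Nid2, the second nidogen, to Nid1 averaged 0.882 ± 0.148 in LLC and 0.562 ± 0.051 in control neocortex, and 0.510 ± 0.139 in LLC and 0.230 ± 0.021 in control cerebellum (exact p = 0.0286 for both, n = 4 each). In hippocampus the nidogen ratios overlapped (exact p = 0.457).

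The ratio of Col4a1 to Col4a2 in hippocampus was 1.09, 0.962, 1.15 and 0.756 in LLC mice and 0.738, 0.776, 0.753 and 0.717 in controls. LLC replicates 1 to 3 were above all controls and LLC replicate 4 lay among them (exact p = 0.0571). In neocortex the pattern was alike, with 1.03, 1.03, 1.04 and 0.826 in LLC mice and 0.850, 0.857, 0.811 and 0.791 in controls (exact p = 0.0857). In cerebellum the ratio averaged 1.04 ± 0.048 in LLC mice and 1.08 ± 0.077 in controls (exact p = 0.486, SD, n = 4 each).

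**Figure D3:**
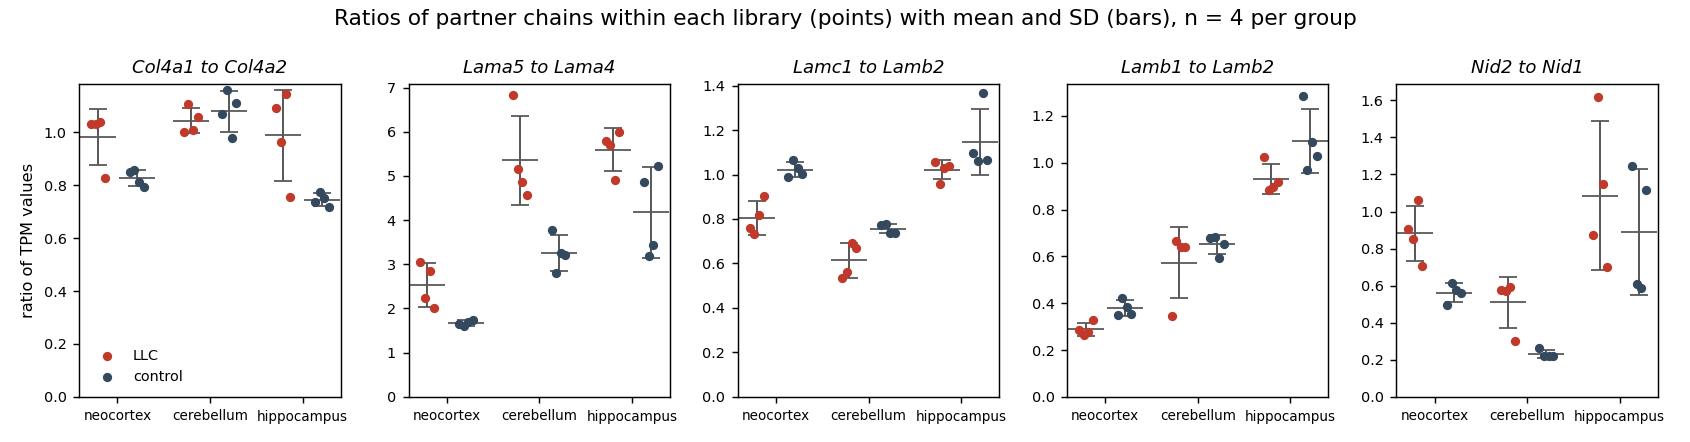
Ratios of the TPM values of partner chains within each library (y axis, from 0) by region (x axis), with LLC libraries in red left of control libraries in dark blue, and bars for the mean and SD of 4 libraries. The ratio of Lamc1 to Lamb2 is lower in every LLC library than in any control of its region, and LLC replicate 4 lies at the level of the controls for Col4a1 to Col4a2 in neocortex and hippocampus.

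The 10 genes differed between brain regions in control mice, as most genes did. Cerebellum against neocortex, 9 of 10 were called, where 85.5% of 14729 genes were. Hippocampus against neocortex, 6 of 10 were called, where 61.8% were, and hippocampus against cerebellum 8 of 10, where 81.9% were. The median over all genes tested was itself 0.31 for cerebellum against neocortex and -0.23 for hippocampus against cerebellum, so changes are to be read relative to those values. Col4a1 averaged 37.6 ± 2.79 TPM in control hippocampus, 9.80 ± 1.49 TPM in control cerebellum and 16.9 ± 1.09 TPM in control neocortex, with n = 4 and the SD after each mean. Col4a2 averaged 50.5 ± 3.41, 9.08 ± 1.29 and 20.5 ± 1.30 TPM in the same 3 groups. For both chains the order was hippocampus, neocortex, cerebellum, with no overlap between neighbours, and Col4a2 differed by 2.36 ± 0.09 between hippocampus and cerebellum.

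Sparc and Nid1 were highest in cerebellum. Sparc averaged 205 ± 8.68 TPM in control hippocampus, 647 ± 35.9 TPM in control cerebellum and 179 ± 8.44 TPM in control neocortex. Its difference was 1.85 ± 0.05 for cerebellum against neocortex and -1.65 ± 0.05 for hippocampus against cerebellum. Nid1 averaged 3.74 ± 0.44 TPM in control hippocampus, 12.9 ± 1.19 TPM in control cerebellum and 4.99 ± 0.19 TPM in control neocortex, the reverse of the collagen IV order. Lama5, Lamb2 and Hspg2 were also higher in cerebellum than in neocortex (0.57, 0.44 and 0.36), where the median gene was 0.31 higher. Lama4 was lower (-0.19). Fn1 was 0.20 higher in cerebellum than in neocortex, less than the median gene, and its sign turned under other scalings, to -0.12 (median-ratio) and -0.17 (quantile). Lamc1 averaged 14.5 ± 1.57, 14.97 ± 0.60 and 14.6 ± 0.86 TPM in control hippocampus, cerebellum and neocortex, and was called in none of the 3 region contrasts. That held for TPM as deposited: with median-ratio and quantile scaling Lamc1 was called lower in cerebellum than in neocortex (-0.28 and -0.34) and higher in hippocampus than in cerebellum (0.18 and 0.21).

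Per length, control neocortex held Sparc at the highest level of the 10, followed by Col4a2, Col4a1, Fn1, Lamc1, Lamb2, Nid1, Lama5, Hspg2 and Lama4. Neighbours from Col4a1 to Lamb2 overlapped in their ranges over the 4 libraries, with means from 16.9 to 14.3 TPM, while every other gene's range was clear of its neighbours'.

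Other components of the basement membrane were measured through 28 further genes. In neocortex 7 of the 24 tested rose and 0 fell. Among them were Vwa1, a perlecan-binding matrix protein (0.59 ± 0.06), Nid2 (0.71 ± 0.12), Col18a1, the core protein of collagen XVIII (0.45 ± 0.07), and Tgfbi, an adhesion protein induced by TGF-beta (0.57 ± 0.11). In cerebellum 1 of 26 rose, the elastic fibre protein Fbln5, at 22.2 ± 9.17 TPM in LLC mice and 6.58 ± 0.90 TPM in controls (1.51 ± 0.29, SD of TPM with n = 4 each, SE of the change). In hippocampus 3 of 24 rose: Vwa1 (0.55 ± 0.10), Vtn, which encodes vitronectin (0.50 ± 0.10), and Fbln5 (0.98 ± 0.20). The medians of this list were 0.13, 0.05 and 0.13 in the 3 regions. Of the other collagen IV chains, Col4a5 was at 2.95 ± 0.96 TPM in LLC hippocampus and 3.14 ± 0.42 TPM in control hippocampus, and was called in no region, while Col4a3, Col4a4 and Col4a6 passed the filter on low values in cerebellum alone and were not called there.

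Among 19 tested matrix receptors, 2 rose in neocortex: Itga6 (0.44 ± 0.07), a laminin-binding integrin chain, and Itga1 (0.41 ± 0.10), a chain that binds collagen IV. In hippocampus Itga6 (0.32 ± 0.06) and Itga8 (0.40 ± 0.09) rose. In cerebellum 1 fell, Itgb8 (-0.47 ± 0.08), an integrin chain that activates latent TGF-beta. The LLC effect on Itga1 was lower in cerebellum than in neocortex (-0.68 ± 0.14, limma adjusted p = 0.0244). Of enzymes that fold, modify and crosslink collagen, 0 of 17, 18 and 17 tested genes were called by limma in neocortex, cerebellum and hippocampus. Over all genes 5.59% were called higher and 2.95% lower in neocortex, 1.23% and 1.27% in cerebellum, and 2.58% and 1.03% in hippocampus, so 0 calls in a list of this size is near that background. At an unadjusted p under 0.05 the list had 4, 3 and 3 genes in the same 3 regions. In the region average P4hb, a subunit of collagen prolyl hydroxylase, was called (0.11 ± 0.03, limma adjusted p = 0.0469), a call lost in 7 of 8 omissions of a replicate number. Of matrix proteases and their inhibitors, 7 of 18 rose and 1 fell in neocortex. Named by smallest p, the risers were the inhibitors Timp4 (0.45 ± 0.08) and Reck (0.44 ± 0.08), the serine protease Htra1 (0.23 ± 0.05) and tissue plasminogen activator Plat (0.43 ± 0.09). In cerebellum 1 of 18 rose, the urokinase receptor Plaur (0.79 ± 0.18), and in hippocampus 2 of 15, Reck (0.36 ± 0.06) and Htra1 (0.23 ± 0.04).

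The TGF-beta pathway, which drives matrix genes in many cells, had 6 of 18 genes up and 1 down in neocortex, 2 up and 0 down of 18 in cerebellum, and 4 up and 0 down of 18 in hippocampus. The co-receptor Eng and the receptor Acvrl1, both used by endothelial cells, were called higher in all 3 regions. In cerebellum both calls were lost in 6 of 8 omissions of a library (limma adjusted p up to 0.0909 for Eng and 0.161 for Acvrl1). In neocortex Eng averaged 34.0 ± 6.31 TPM among LLC mice and 18.6 ± 0.89 TPM among controls, in cerebellum 27.9 ± 4.23 TPM among LLC mice and 16.4 ± 1.22 TPM among controls, and in hippocampus 23.0 ± 3.12 TPM among LLC mice and 12.4 ± 0.47 TPM among controls (SD, n = 4 each). The inhibitory Smad6 rose by 1.01 ± 0.16 in neocortex and 0.74 ± 0.16 in hippocampus, and the receptor Tgfbr2 by 0.47 ± 0.06 in neocortex. Of 5 relatives of SPARC, 0 rose in any region and Spock3, a testican, fell in neocortex (-0.23 ± 0.06) and cerebellum (-0.30 ± 0.06).

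Many calls of single genes in these lists were lost when 1 library was left out, and calls over all genes moved as well. With all libraries 1237, 366 and 529 genes were called in neocortex, cerebellum and hippocampus. With 1 library left out the calls ranged from 187 to 3834, 6 to 1570 and 57 to 1667. In cerebellum the calls of Fbln5, Itgb8, Plaur, Eng, Acvrl1 and Spock3 were kept without LLC replicate 1 or 4 and lost in every other omission of 1 library in which the gene was tested. In hippocampus those of Fbln5, Itga6, Itga8, Reck, Htra1 and Smad6 were lost in 7 of 8 omissions, all but that of LLC replicate 4, and those of Vwa1 and Vtn in 6 of 8. In neocortex Itga1 and Spock3 were lost in 7 of 8 omissions, Plat in 5, Tgfbi, Reck and Htra1 in 4, Timp4 in 3 and Nid2 in 2, while Vwa1, Col18a1, Itga6, Eng, Acvrl1, Tgfbr2 and Smad6 kept their calls in all 8. Eng and Acvrl1 also kept theirs in all 8 omissions in hippocampus. The difference between regions for Itga1 was lost in 5 of 16 omissions.

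**Figure D4:**
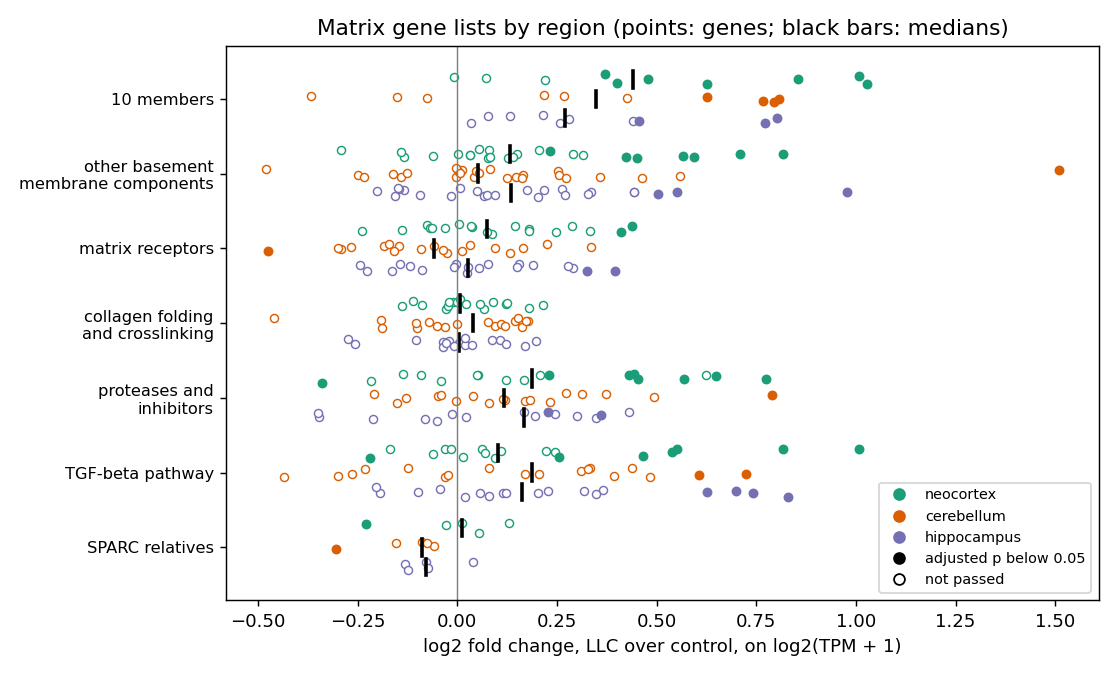
Log2 fold change of LLC over control on log2(TPM + 1) (x axis) of every tested gene in 7 lists (y axis), for neocortex, cerebellum and hippocampus; filled points passed the limma test and black bars are list medians. The medians of the 10 basement membrane genes lie between 0.27 and 0.44, and no collagen folding or crosslinking gene is filled.

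Part of the vascular cell markers rose as well, with the most calls in neocortex and the fewest in cerebellum, as was so over all genes. Of all genes tested, 5.59% rose and 2.95% fell in neocortex, 1.23% and 1.27% in cerebellum, and 2.58% and 1.03% in hippocampus. In the tests of the difference between regions 0 endothelial and 0 mural markers were called. Of all genes 0.646% were called for cerebellum minus neocortex, 0.0936% for hippocampus minus cerebellum and 0% for hippocampus minus neocortex. Of 12 endothelial markers, 9 rose and 1 fell in neocortex, 2 rose and 1 fell in cerebellum, and 7 rose and 1 fell in hippocampus. By smallest p these were Flt1 (0.85 ± 0.11) and Pecam1 (0.94 ± 0.12) in neocortex, Itm2a, which fell (-0.64 ± 0.09), and Ly6c1 (1.04 ± 0.18) in cerebellum, and Pecam1 (0.82 ± 0.09) and Flt1 (0.79 ± 0.11) in hippocampus. Flt1 and Pecam1 kept their calls in each omission of 1 library, while in cerebellum Itm2a lost its call in 4 of 8 and Ly6c1 in 6 of 8. Their summed level in neocortex was 432 to 568 TPM across LLC libraries and 344 to 375 TPM across controls. In cerebellum it was 411 to 609.9 TPM across LLC libraries and 392.4 to 408 TPM across controls, and in hippocampus 345 to 408 TPM across LLC libraries and 269 to 300.5 TPM across controls. Of 10 mural markers, those of pericytes and smooth muscle, 6, 1 and 2 rose in neocortex, cerebellum and hippocampus and 0 fell. The mural sums overlapped in cerebellum (211 to 282 TPM across LLC libraries, 192 to 224 TPM across controls). They did not overlap in neocortex (195 to 235 against 164 to 181 TPM) or hippocampus (174 to 206 against 142 to 164 TPM). Of the fibroblast and meningeal markers 1 rose in neocortex, Pdgfra (0.21 ± 0.05), which oligodendrocyte precursors also express, and Lum fell in cerebellum (-1.03 ± 0.12) and hippocampus (-0.54 ± 0.09). Omission of 1 library ended the call of Pdgfra in 6 of 8 cases and that of Lum in 2 of 8 and 5 of 8. In bulk tissue, more cells of a type and more RNA of these genes per cell cannot be told apart, and the part of vascular cell number in these results was not tested.

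In neocortex and cerebellum the LLC libraries kept the same order on both measures, which was not so in hippocampus. Over the 10 genes, the mean log2 difference from controls of the region was 0.64, 0.59, 0.48 and 0.31 in LLC neocortex replicates 1 to 4, 0.56, 0.35, 0.24 and 0.17 in LLC cerebellum and 0.25, 0.58, 0.26 and 0.30 in LLC hippocampus. Over the endothelial markers it was 0.67, 0.63, 0.52 and 0.33 in LLC neocortex, 0.54, 0.33, 0.19 and 0.08 in LLC cerebellum and 0.47, 0.56, 0.42 and 0.35 in LLC hippocampus. LLC replicate 4 had the smallest values in neocortex and cerebellum on both, and also the lowest erythrocyte sum of its group in all 3 regions, 3564 TPM in neocortex, 4247 TPM in cerebellum and 2621 TPM in hippocampus.

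**Figure D5:**
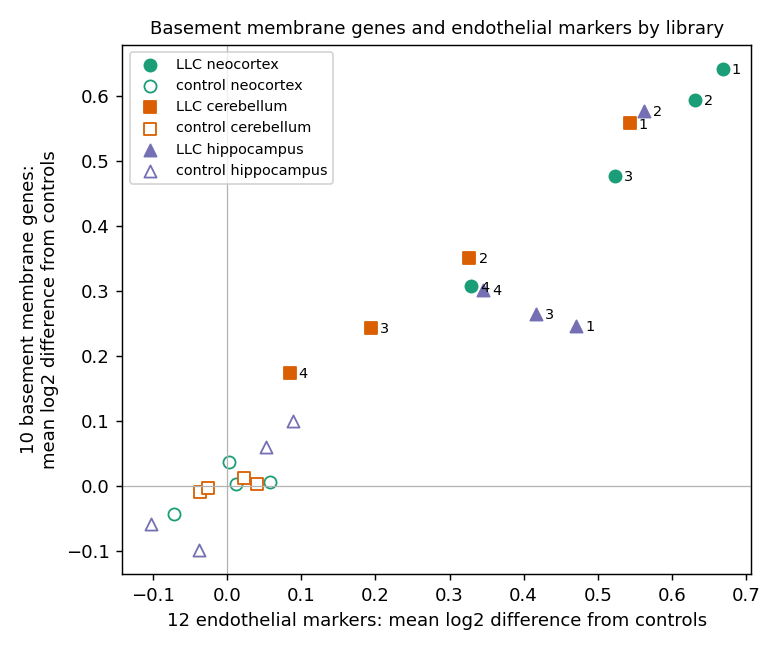
Mean log2 difference from the controls of the region over 12 endothelial markers (x axis) and over the 10 basement membrane genes (y axis) for each of 24 libraries; filled symbols are LLC libraries, numbered by replicate, and open symbols are controls. All LLC libraries lie above all controls on the y axis, from 0.17 in cerebellar replicate 4 to 0.64 in neocortical replicate 1.

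The genes most like 3 members in pattern were found by Pearson's r over the 24 libraries, after the mean of each region was subtracted, among 13633 genes. The libraries share the LLC and control groups, so r is a description. For Col4a1 these were Esam (0.948), Capg, Angptl4, Anxa2 and Pecam1 (0.936). For Fn1 they were Flt1 (0.954), Cxcl12, Sema3g, Crispld2 and Vwf (0.945), and for Sparc Itih3 (0.978), Phyhd1, Kdr, Robo4 and Alas2 (0.972). Among the 10 genes, r with Col4a1 was 0.926 for Sparc, 0.899 for Col4a2, 0.877 for Lama5, 0.858 for Fn1, 0.811 for Lamb2 and 0.726 for Hspg2. It was 0.05 for Lamc1, 0.006 for Nid1 and -0.17 for Lama4.

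The remaining members lie, on mm10 and GENCODE M21, at chr1:71585520-71653200 on the minus strand (Fn1), chr10:38965515-39110188 on the plus strand (Lama4), chr2:180176373-180225859 on the minus strand (Lama5), chr9:108479736-108490530 on the plus strand (Lamb2), chr1:153218922-153332786 on the minus strand (Lamc1), chr13:13437551-13512269 on the plus strand (Nid1) and chr4:137468769-137570630 on the plus strand (Hspg2). TPM values are per gene symbol, so no exon or isoform is resolved. Col4a1, Col4a2, Fn1 and Nid1 overlap annotated antisense genes. The library kit keeps strand but whether the counting used it is not given in the sources used here, so reads of such a pair cannot be told apart.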

How the data were processed

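Per the labels' protocols, Trizol RNA was made into stranded TruSeq mRNA libraries, which were read on a NovaSeq instrument. The authors deposited TPM values of 24 libraries in 1 table. Their build was mm10 according to the submitters' processing notes; aligner, counter and annotation: not given in the sources used here. Such values hold no read number, so depth is unknown, and any gene gaining share depresses the rest. Of 276 library pairs 0 were identical.

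Each region was tested with limma 3.58.1 (R 4.3.3, trend) on log2(TPM + 1) where the mean reached 1 TPM, two-sided, with Benjamini-Hochberg adjustment over all genes tested at 0.05. This scale understates changes of low genes. Region averages, differences of the LLC effect (1 fit of 24 libraries) and control regions used the same model. Ratios and figures used Python 3.11.15. The fits were tried on simulated data with independent normal noise and known changes of a single size. Such data lack shifts shared by a whole library and do not probe smaller changes.

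The members and the gene lists (197 listed genes, 196 in the table) were chosen with earlier results of these data known. Named outside the 10 members were passing genes of each list, at most 4 by p (2 for cell markers), and for Col4a1, Fn1 and Sparc the 5 genes most alike. Levels of the other collagen IV chains, Lamb1 and Nid2 are context. Promoter windows matched 7 of the 10 members, and Fn1, Lama4 and Lamc1 were not matched. Alternatives were another pseudocount (0.1), other filters (5 TPM, none), other scalings (median-ratio, quantile), weights per library, all 24 libraries in 1 fit, replicate numbers as blocks and omission of each library.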

Additional observations from a re-analysis of the deposited data

Results flagged for a closer look

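Nid1, the gene of nidogen-1, had LLC effects that differed between regions by a test of the difference: the effect in cerebellum minus that in neocortex was -0.58 (limma adjusted p = 0.0472). That call was lost in 11 of 16 omissions of a library (limma adjusted p up to 0.142) and under several other settings listed below. Within no single region did Nid1 pass. All 4 LLC libraries were below all 4 controls in cerebellum, while in neocortex LLC values reached from 5.21 to 6.78 TPM and control values from 4.85 to 5.28 TPM. In 60 groups of 4 libraries (10 genes in 6 groups), 0 held a library far from the other 3 by Dixon's criterion, where chance gives about 1 in 20.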

How the results depend on the processing

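Members called in cerebellum numbered 4, but 0 with no filter and 9 with library weights. Over all genes the calls there were 366, and 71 with no filter and 5769 with library weights. Nid1 between cerebellum and neocortex (1 call) was lost, giving 0, with a pseudocount of 0.1, a filter at 5 TPM, no filter, median-ratio or quantile scaling, and a block of region differences per title number that was chosen after seeing the data, and weights gave 4. Between hippocampus and cerebellum 0 became 2 with weights and 1 with the title number as a block. Calls over all genes for that difference went from 13 to 595 with weights and to 40 with the block. For cerebellum minus neocortex they went from 89 to 2052 with weights. Control hippocampus against neocortex gave 3 in place of 6 with the 5 TPM filter, which leaves fewer genes to test. The Lama5 to Lama4 ratio in hippocampus was 0.41 in log2 on TPM + 1 (exact p = 0.0286). The other causes were not tested.

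Leaving out each library gave 4 to 8 members in neocortex (4 without LLC replicate 2), 0 to 6 in cerebellum, 1 to 3 in hippocampus, 5 to 7 for the region average, 0 to 1, 0 to 2 and 0 to 0 for the differences (cerebellum minus neocortex, hippocampus minus cerebellum, hippocampus minus neocortex), and 7 to 9, 5 to 6 and 8 to 9 for control regions. Signs turned for small values: Lama4 in neocortex (-0.030 to 0.022) and hippocampus (-0.036 to 0.12), Col4a2 in hippocampus (-8.32e-05 to 0.15), Lamc1 (-0.0015 to 0.058) and Nid1 (-0.016 to 0.084) in the average, and in control regions Lamc1 (-0.0018 to 0.058, -0.064 to 0.053 and -0.10 to 0.022) and Fn1 for hippocampus against neocortex (-0.23 to 0.065). With scaling, Fn1 turned to -0.12 and -0.17 and Lamc1 to -0.28 and -0.34 for cerebellum against neocortex, Lamc1 to 0.18 and 0.21 for hippocampus against cerebellum. With weights the value of Fn1, control hippocampus against control neocortex, was 0.0059.

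Calls over all genes ranged with the setting from 577 to 4337 in neocortex (1237 as reported), 71 to 5769 in cerebellum (366), 179 to 1180 in hippocampus (529) and 1088 to 5308 for the average (1950), and with omission of each library from 187 to 3834, 6 to 1570, 57 to 1667 and 379 to 4331. For the differences they ranged from 2 to 2052 (89 as reported), 0 to 595 (13) and 0 to 2 (0), and with omission of each library from 22 to 303, 4 to 161 and 0 to 0. Higher and lower calls were 809 and 428 in neocortex, 613 and 517 with quantile scaling, 378 and 151 in hippocampus, 322 and 235 with quantile scaling, and 8987 and 3600 for control cerebellum against neocortex, 5946 and 5978 with median-ratio scaling.

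Replicate numbers were not taken as pairs (16 of 24 pairs by title number and 5 of 12 by description number correlated over 0.1). By title number the correlations ran from -0.119 to 0.664, which does not decide whether libraries of 1 number share an animal. The tests of differences between regions treated the libraries as independent. For cerebellum minus neocortex 89 genes were called so, 205 with the title number as a block and 2 with region differences per title number. With the description number as a block, 6, 4, 3 and 6 members passed in neocortex, cerebellum, hippocampus and the average, and 641, 724, 179 and 2051 genes in all. With no read numbers, no counting error can be given.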
